A study of Mus musculus with 3 samples.

Results

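Keratocytes are the resident cells of the corneal stroma, and the cells described here are those that expressed the keratocyte proteoglycan gene Kera and little of the wound genes Mmp3 and Timp1. They came from single-cell libraries of mouse cornea and limbus made on the 10x Genomics droplet platform, in which each RNA molecule is counted once through a unique molecular identifier (UMI). There was 1 library per group, from wild-type mice, and per the series' design text each came from 1 mouse. The first group was injured with nitrogen mustard (NM), an alkylating agent that damages DNA, and treated with losartan, a blocker of the angiotensin II type 1 receptor. The second was injured with NM and treated with saline, and the third was uninjured. The sources used here do not give the age or sex of the mice, the hour of collection, how long after the injury tissue was taken, or how losartan was given and at what dose.

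The cells were chosen by measured values of these same libraries, so those values describe the choice and are not tested. A barcode was taken as a member if it showed 500 genes or more, no more than 20% mitochondrial UMIs, at least 100 UMIs of Dcn, Lum, Kera, Col1a1 and Col1a2 together per 10000 UMIs, and at least 1 Kera UMI. It also had to hold fewer than 10 UMIs of Mmp3 and Timp1 together per 10000 UMIs, fewer than 100 of the epithelial keratins Krt5, Krt14 and Krt12 per 10000 UMIs, and fewer than 3 of 6 mural cell genes. There were 1402 such cells among 25971 barcodes, with 412 in the losartan library, 617 in the saline library and 373 in the uninjured library. Each group is a single library, so no difference below has a replicate check and no p-value was computed. Intervals are 95% intervals and cover counting error only.

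Keratocytes lie flat between the collagen lamellae of the stroma and keep it transparent. They secrete thin collagen fibrils together with small leucine-rich proteoglycans, of which keratocan (Kera) and lumican (Lum) carry keratan sulphate chains, and they hold large amounts of soluble enzymes known as corneal crystallins, such as Aldh3a1 and Tkt. After injury, keratocytes near a wound can die or turn into activated fibroblasts that make matrix proteases and scar matrix.

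The cells carried the keratocyte markers of their label. Of 10 keratocyte markers, 10 were detected in losartan, 10 in saline and 9 in uninjured members, with Ptgds at 0 UMIs in uninjured cells. Their summed level was 41080.1 CPM (the UMIs of a gene scaled to a total of 1000000 UMIs over all members of a library) in losartan, 54511 CPM in saline cells and 77676 CPM in uninjured ones. Kera, Lum, Dcn and Col1a2 are part of the selection, so their levels describe the cells and test nothing. That they were not activated is given by the rule for Mmp3 and Timp1 only. Losartan members of 5000 or more UMIs differed by 2-fold from losartan cells past the limit in 3.26% of genes, so the cells are called members here rather than unactivated.

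Depth split the cells and bears on all of the comparisons. The median member had 2571 UMIs in the losartan library, 2866 in the saline library and 10836 in the uninjured library. Of the 412 losartan members, 311 had fewer than 5000 UMIs (median 2233) and 101 had 5000 or more (median 23022), and those 101 cells held 74.5% of the UMIs. In the saline library 581 of 617 members had fewer than 5000 UMIs, and in the uninjured library 65 of 373 did. Cells under 5000 UMIs are called shallow and the others deep below, a split chosen after seeing the data. Shallow cells held more mitochondrial RNA, at 4.44% of UMIs in losartan, 4.65% in saline and 3.72% in uninjured cells, than deep cells, at 1.75%, 2.48% and 1.78% in the same order of libraries. Shallow injured cells also held more of the noncoding RNA Gm42418, which reached 124067 CPM in shallow losartan and 93376 CPM in shallow saline cells, against 14653 CPM in shallow uninjured cells. The 65 shallow uninjured cells held 161328 UMIs, so 1 UMI there is worth 6.20 CPM, and the 36 deep saline cells held 257028 UMIs, so 1 UMI there is worth 3.89 CPM. Whether depth or the treatments set a difference between libraries cannot be told apart for values that hold in 1 depth range only, and values by range are given below for part of the genes and lists.

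**Figure D1:**
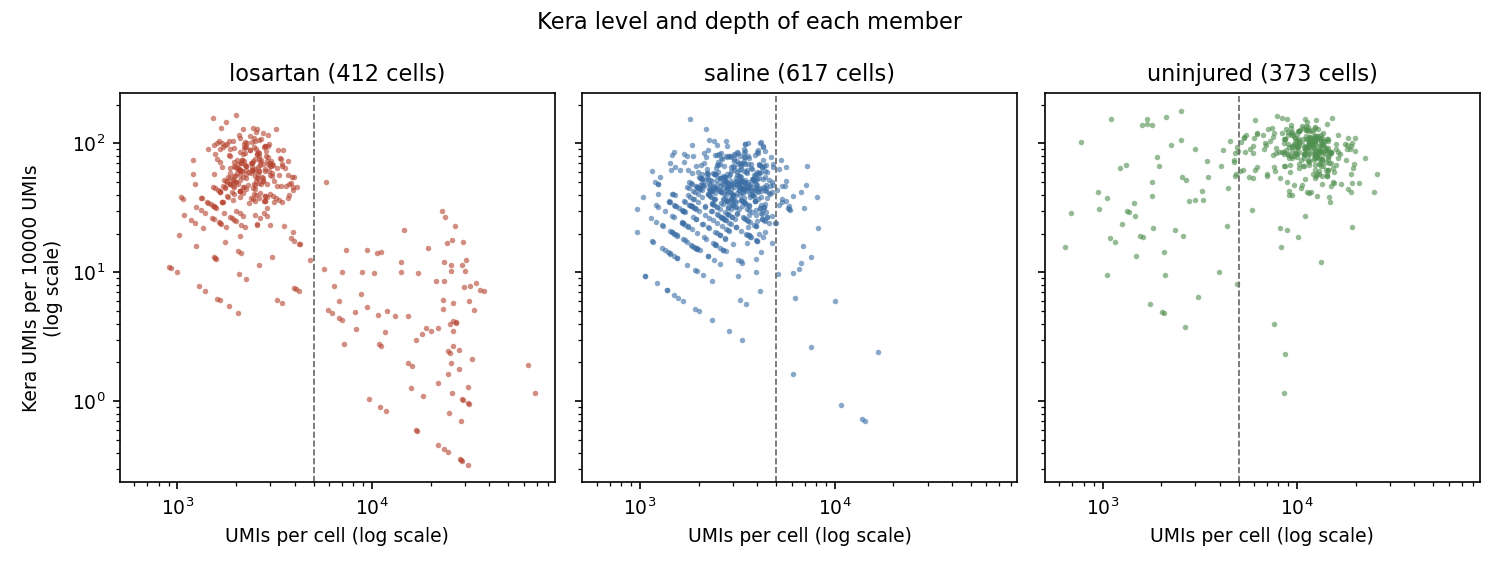
Kera UMIs per 10000 UMIs (vertical, log scale) against the total UMIs of a cell (horizontal, log scale) for every member, with losartan, saline and uninjured cells from left to right and a dashed line at 5000 UMIs. The losartan cells form a shallow group with high Kera and a deep group with low Kera, whereas most saline cells are shallow and most uninjured cells are deep with high Kera.

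Markers of other cell types differed between libraries in the members. The 10 neutrophil markers summed to 775 CPM in losartan, 2376 CPM in saline and 7.74 CPM in uninjured members, and in the 36 deep saline cells to 11481 CPM. The 5 pan-immune markers summed to 94.8, 212 and 1.60 CPM in losartan, saline and uninjured members, and to 1198 CPM in deep saline cells, so deep saline cells carry immune RNA and are read with that value in mind. The 10 epithelial markers summed to 607, 645 and 1354 CPM in losartan, saline and uninjured members, and in shallow cells alone to 1600 CPM in losartan, 668 CPM in saline and 4283 CPM in uninjured members. Of the keratins that the selection limits, Krt12 stood at 0.78%, 0.515% and 2.66% of its level in keratin-rich cells in losartan, saline and uninjured members, and Krt14 at 1.25%, 1.15% and 5.63%. The epithelial water channel gene Aqp5, which the selection does not use, stood at 1.01%, 0.816% and 2.5% in the same order. Of 5 corneal endothelium markers, 5, 5 and 4 were detected, with sums of 1055, 1387 and 1925 CPM in losartan, saline and uninjured members. Slc4a4 and Car3 of this set are also given among the keratocyte genes below. Slc4a4 makes up a large part of these sums, so they are not read as endothelial RNA. The 10 macrophage markers summed to 302, 446 and 19.5 CPM, the 7 Schwann cell markers to 235, 223 and 285 CPM, and the 7 vascular endothelium markers to 90.3, 73.0 and 279.5 CPM in the same order of libraries. The 6 mural markers, which the selection limits, the 6 lymphocyte markers and the 5 melanocyte markers summed to at most 13.3, 6.83 and 6.83 CPM in any library. The red cell gene Hbb-bs had 413 CPM in shallow losartan and 0.607 CPM in shallow saline members, and 1 losartan cell held 50% of its UMIs. The part of these cells in the results was not tested.

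The share of stromal cells that met the rule was lower in the losartan library. It was 54.9% (412 of 750, exact Clopper-Pearson interval 51.3 to 58.5) in losartan, 83.3% (617 of 741, 80.4 to 85.9) in saline and 84.0% (373 of 444, 80.3 to 87.3) in the uninjured library. The stromal cells past the Mmp3 and Timp1 limit, called activated below, made up 38.3% (34.8 to 41.9) in losartan, 4.59% (3.20 to 6.35) in saline and 12.2% (9.27 to 15.6) in the uninjured library. Among shallow stromal cells the member share was 86.6% in losartan, 85.7% in saline and 83.3% in uninjured, so the libraries were close there. Among deep stromal cells it was 25.8%, 57.1% and 84.2% in losartan, saline and uninjured libraries. The losartan library thus had its activated cells among deep cells, and in deep cells the saline share also lay below the uninjured share.

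The limit on Mmp3 and Timp1 cuts a range rather than a gap. In the losartan library 47 members held 5 to under 10 Mmp3 and Timp1 UMIs per 10000, with Kera at 761 CPM over those cells, and 44 cells just outside held 10 to under 20, with Kera at 598 CPM. Both sets were deep, with medians of 18110 and 20394 UMIs. The 281 losartan members with no UMI of either gene had a median of 2239 UMIs and Kera at 4966 CPM. In saline, 580 of 617 members had no UMI of either gene, and in uninjured cells 341 of 373.

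Across the whole transcriptome, the count of genes that differed varied between depth ranges. A gene counts as changed here if it had 10 CPM or more in either library and differed by 2-fold or more after adding 5 CPM to both values. In losartan over saline, 23.8% of 9525 genes were higher and 8.44% lower, with a median log2 ratio of 0.40 over all of them. In saline over uninjured, 9.97% of 9738 genes were higher and 25.9% lower, with a median of −0.56. In losartan over uninjured, 8.2% of 9612 genes were higher and 6.85% lower, with a median of −0.14. Scaling the libraries by the median of gene ratios instead of by total counts shifts these medians to 0 and turns the balance: the higher genes then make up 45.6% of the changed genes in losartan over saline in place of 73.8%, 71.7% in place of 27.8% in saline over uninjured, and 69.9% in place of 54.5% in losartan over uninjured. Each list below is read against the all-gene median of its comparison.

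A stricter count asked for 2-fold the same way in shallow and in deep cells, with at least 5 UMIs in the higher library in each range. In losartan over saline it held for 0.901% (higher) and 1.11% (lower) of 7323 genes, and 3.22% went opposite ways in the ranges. In saline over uninjured it held for 5.35% (higher) and 16.7% (lower) of 6767 genes, and 1.8% went opposite ways. In losartan over uninjured it held for 2.48% (higher) and 4.9% (lower) of 6695 genes, and 1.54% went opposite ways. Between the injured libraries, then, few genes differed at both depths, while both differed from the uninjured library at both depths in more genes. Both comparisons with the uninjured library share it, so they are not independent of each other. Among the 3 libraries, losartan and saline shared 7 cell barcodes, saline and uninjured 21, and losartan and uninjured 28, of which 2 were members in both libraries.

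In the keratan sulphate system, B3gnt7 and Chst5, enzymes that build and sulphate the chains, were lower in both injured libraries at both depths, and most proteoglycan cores were not. Of 16 genes of this list, 14 were measured in losartan over uninjured, of which 2 were 2-fold higher and 3 lower. Of all genes 8.2% were higher and 6.85% lower there. The list had a median log2 ratio of −0.51 against −0.14 for all genes. In saline over uninjured 0 of 13 were higher and 7 lower, where 25.9% of all genes were lower, with a median of −1.04 against −0.56. The list holds the selection genes Kera, Lum and Dcn, and Kera is among the lower genes of both comparisons. In shallow cells alone the list stood above all genes, with medians of −0.19 against −0.92 in losartan over uninjured and −0.40 against −0.78 in saline over uninjured, so the list as a whole was not low at both depths. B3gnt7 (chr1:86302832-86307305, plus strand), which adds N-acetylglucosamine to growing keratan sulphate chains, had 9.1 CPM in losartan, 21.5 CPM in saline cells and 199 CPM in uninjured ones. It was 21.9-fold (14.8 to 33.7) lower in losartan than in uninjured cells and 9.24-fold (6.75 to 13.0) lower in saline. The drop stood at both depths, with 13.7, 21.2 and 143 CPM in shallow and 7.51, 23.3 and 202 CPM in deep losartan, saline and uninjured cells. Keratin-rich cells had at most 20.8 CPM of it in any library.

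Chst5 (chr8:111889136-111910447, minus strand), the sulphotransferase that in mouse cornea adds sulphate to N-acetylglucosamine of keratan sulphate, was also lower in both injured libraries. It had 74.2 CPM in losartan and 66.7 CPM in saline, against 332 CPM in uninjured cells, 4.48-fold (3.87 to 5.21) and 4.98-fold (4.15 to 6.03) lower. Both injured libraries lay below the uninjured one in shallow cells, at 64.5 and 68.6 against 242 CPM, and in deep cells, at 77.5 and 54.5 against 336 CPM, and the injured libraries did not differ beyond counting error over all members. A further sulphotransferase, Chst2, had 18.5 CPM in losartan, 6.83 CPM in saline cells and 27.2 CPM in uninjured ones, and was 2-fold lower at both depths in saline only. Chst1, which sulphates galactose, was at or under 0.70 CPM in all 3 libraries. The glycosyltransferases B4galt1 (154, 87.2 and 192 CPM in losartan, saline and uninjured cells) and B3gnt2 (42.0, 21.5 and 56.0 CPM) were 2-fold lower in saline than in uninjured cells, and B4galt4 was under 10 CPM throughout.

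The proteoglycan cores differed among themselves. Lum, which the selection uses, had 5013 CPM in losartan, 4770.0 CPM in saline cells and 8658 CPM in uninjured ones. Kera (chr10:97606879-97613692, plus strand), also used, had 1868, 4124 and 8514 CPM in the same libraries. Its order depended on depth: shallow cells had 5602 CPM in losartan, 4384 CPM in saline cells and 5771 CPM in uninjured ones and the saline level was the lowest, whereas deep cells had 592, 2459 and 8637 CPM. Dcn, decorin, had 24163 CPM in losartan, 36968 CPM in saline cells and 37486 CPM in uninjured ones. Outside the selection, osteoglycin (Ogn) had 498, 559 and 691 CPM and biglycan (Bgn) 1233, 1954 and 1576 CPM in losartan, saline and uninjured cells, neither past 2-fold in any comparison over all members. In shallow cells Bgn was 2-fold higher in both injured libraries than in the uninjured one. Prelp was 2.39-fold (2.04 to 2.82) lower in saline than in uninjured cells, and osteomodulin (Omd) stayed between 14.7 and 34.1 CPM. Fibromodulin (Fmod) had 281 CPM in losartan, 72.5 CPM in saline cells and 107 CPM in uninjured ones, but 6 losartan cells held 50% of its UMIs, and asporin (Aspn), at 41.3, 4.2 and 2.93 CPM, had 50% of its losartan UMIs in 3 cells.

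The corneal crystallin Tkt, transketolase of the pentose phosphate pathway (chr14:30548359-30574720, plus strand), had the lowest ratio to uninjured cells of the measured keratocyte genes in both injured libraries. It had 255 CPM in losartan, 254 CPM in saline cells and 1536 CPM in uninjured ones, 6.02-fold (5.57 to 6.51) lower in losartan and 6.06-fold (5.52 to 6.66) lower in saline. At both depths the injured libraries lay far below, with 158 and 261 against 1698 CPM in shallow and 289 and 206 against 1529 CPM in deep cells. Aldh3a1, an aldehyde dehydrogenase and crystallin, had 1051 CPM in losartan, 1332 CPM in saline cells and 3450.0 CPM in uninjured ones, 3.28-fold (3.15 to 3.42) and 2.59-fold (2.48 to 2.7) lower, and again lower at both depths. Both genes are also made by the epithelium, where keratin-rich cells had 1892, 608 and 11358 CPM of Aldh3a1 and 773, 243 and 5786 CPM of Tkt in losartan, saline and uninjured libraries. The part of epithelial RNA in the member levels was not tested.

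Of 16 keratocyte genes, 11 were measured in saline over uninjured and 1 was higher and 4 lower, where 9.97% of all genes were higher and 25.9% lower, with a median of −0.77 against −0.56. In shallow cells the list median was −0.76 against −0.78 for all genes. In deep cells 2 of 12 were higher and 8 lower in saline over uninjured, with a median of −1.21 against −0.33. Angptl7, Slc4a4 and Aldh1a1 were among these 8. Of all genes there, 1708 of 10273 were higher and 2655 lower. In losartan over uninjured 2 of 11 were higher and 4 lower, where 8.2% of all genes were higher and 6.85% lower, with a median of −0.72 against −0.14, and −1.01 against −0.92 in shallow cells. In deep cells 1 of 11 was higher and 4 lower there (median −0.53 against 0.0015), where 8.59% and 7.33% of all genes were. The transcription factor Tfap2b had 165 CPM in losartan, 335 CPM in saline cells and 574 CPM in uninjured ones, 3.47-fold (3.14 to 3.84) lower in losartan than in uninjured cells and 2-fold lower at both depths there. The potassium channel gene Kcnk2 had 12.9, 8.4 and 34.1 CPM in losartan, saline and uninjured cells, and 26.1, 7.89 and 24.8 CPM in shallow ones, where losartan was level with uninjured cells. The secreted protein gene Angptl7 stayed among the highest, at 2221, 2836 and 4331 CPM, and the bicarbonate transporter Slc4a4 at 663, 550.2 and 997 CPM, without passing 2-fold over all members.

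Aldh1a3, which makes retinoic acid, was the exception, with 26.9 CPM in losartan and 34.1 CPM in saline against 4.53 CPM in uninjured cells, although keratin-rich cells of the injured libraries held 2073 and 2697 CPM of it, so that members stood at 1.3% and 1.27% of that level, beside 1.01% and 0.816% for Aqp5. Thrombomodulin (Thbd) had 31.8 CPM in losartan, 4.73 CPM in saline cells and 10.4 CPM in uninjured ones, and was low in shallow cells of each. Aldh1a1 (185, 223 and 239 CPM) and Cd34 (107, 88.7 and 87.0 CPM) were not past 2-fold in any comparison over all members. Ptgds, Car3, Nt5e and Hhip were under 10 CPM in all 3 libraries.

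**Figure D2:**
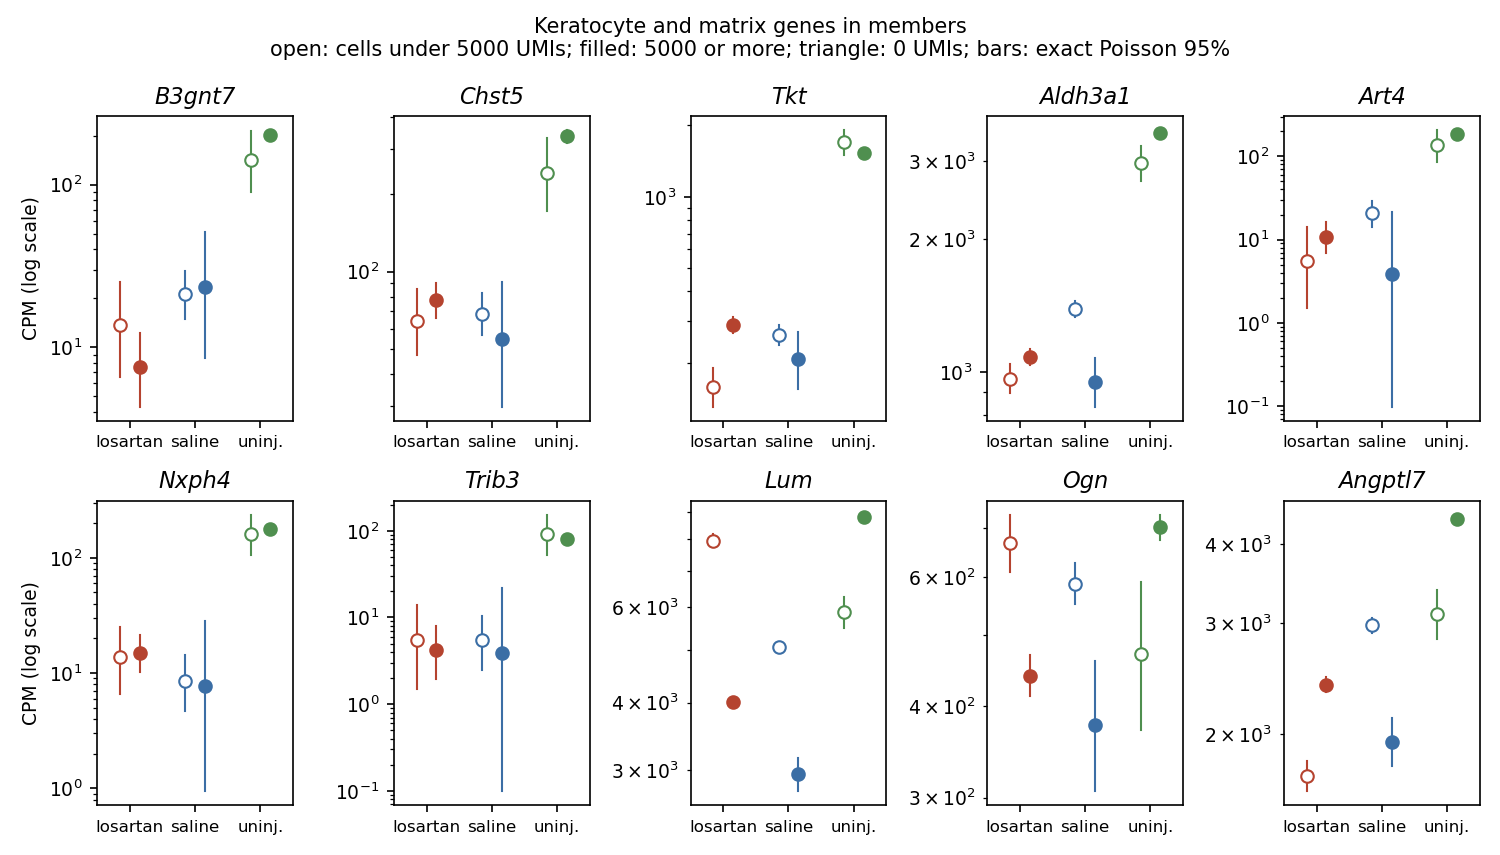
CPM (log scale) of 10 genes in members, with losartan, saline and uninjured libraries from left to right, shallow cells as open and deep cells as filled symbols, and bars for exact Poisson 95% intervals. B3gnt7, Chst5, Tkt, Aldh3a1, Art4, Nxph4 and Trib3 were lower in both injured libraries at both depths, whereas Lum, Ogn and Angptl7 were closer between libraries.

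Most measured collagen genes were lower in saline than in uninjured cells, and 7 of 19 were lower in losartan. Of 20 collagen genes, 0 of 17 measured were higher and 12 lower in saline over uninjured, where 25.9% of all genes were lower. The selection genes Col1a1 and Col1a2 are among those 12, so the list counts and medians describe the choice in part. The median was −1.14 against −0.56 for all genes, and 9 were lower at both depths, where 16.7% of all genes were. In losartan over uninjured 3 of 19 were higher and 7 lower, where 8.2% and 6.85% of all genes were. The median was −0.86 against −0.14, and 5 were lower at both depths, where 4.9% of all genes were. Col1a2 is among the 7 lower in losartan and the 9 lower at both depths in saline, but not among these 5. Col5a2, a chain of the collagen that limits the width of corneal fibrils, had 769 CPM in losartan, 838 CPM in saline cells and 2445 CPM in uninjured ones, 3.18-fold (3.03 to 3.33) and 2.92-fold (2.77 to 3.08) lower. Col6a3, of the microfibril-forming collagen VI, had 732, 739.8 and 2264 CPM and was 3.09-fold (2.95 to 3.25) and 3.06-fold (2.89 to 3.24) lower. Both were lower at both depths in both injured libraries. Between the injured libraries Col5a2 was only 1.09-fold (1.02 to 1.16) lower in losartan and Col6a3 1.01-fold (0.944 to 1.08) lower, the second within counting error of no difference. Col6a1 (752, 1120.4 and 2446 CPM) and Col6a2 (427, 549 and 1519 CPM) had the same order. Col1a2, a selection gene, had 5901 CPM in losartan, 3578 CPM in saline cells and 12923 CPM in uninjured ones, and Col1a1, also used, 6695, 5174 and 12199.7 CPM. Col3a1, the collagen of scars, had 323 CPM in losartan, 7.88 CPM in saline cells and 98.7 CPM in uninjured ones, with 50% of the losartan UMIs in 3 cells.

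Over all members, most collagen-processing genes were not past 2-fold against uninjured cells. Of 23 measured, 1 was higher and 8 lower in saline over uninjured, where 9.97% of all genes were higher and 25.9% lower (median −0.83 against −0.56, and −0.67 against −0.78 in shallow cells). In deep saline over uninjured cells 2 of 23 were higher and 13 lower (median −1.11 against −0.33), where 1708 and 2655 of 10273 genes were. Against uninjured cells 3 were higher and 1 lower in losartan over all members, where 8.2% and 6.85% of all genes were (median 0.13 against −0.14, and −0.47 against −0.92 in shallow cells). In deep cells 3 of 23 were higher and 1 lower in losartan (median 0.21 against 0.0015). Serpinh1, the collagen chaperone of the endoplasmic reticulum, had 934 CPM in losartan, 388 CPM in saline cells and 1168 CPM in uninjured ones, and 520.2, 404 and 651 CPM in shallow ones. Plod1, a lysyl hydroxylase, was lower at both depths in both injured libraries, with 130.5, 159.6 and 477 CPM, 3.66-fold (3.27 to 4.1) and 2.99-fold (2.65 to 3.39) lower. The lysyl oxidase gene Lox, which crosslinks collagen, had 334 CPM in losartan, 68.3 CPM in saline cells and 126 CPM in uninjured ones, and its losartan level came from deep cells (414 CPM against 98.8 CPM in shallow ones).

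Other matrix genes gave 5 higher and 9 lower of 25 measured in saline over uninjured (median −0.80 against −0.56), where 9.97% and 25.9% of all genes were. In losartan over uninjured 7 of 29 were higher and 2 lower (median 0.02 against −0.14), where 8.2% and 6.85% of all genes were. Versican (Vcan), a proteoglycan of provisional matrix, had 89.9 CPM in losartan, 7.35 CPM in saline cells and 1.6 CPM in uninjured ones, with 6 losartan cells holding 50% of its UMIs. Tenascin C (Tnc) had 125, 13.7 and 3.2 CPM, also with 50% in 6 losartan cells. Efemp1 was lower at both depths in both injured libraries, with 29.0 and 16.3 CPM against 66.7 CPM, and the microfibril gene Mfap2 was lower at both depths in saline (5.25 CPM) but not in losartan (119.6 CPM, against 182 CPM uninjured). Mfap4, of elastic microfibrils, was higher in saline, at 508 CPM in losartan, 1715 CPM in saline cells and 686 CPM in uninjured ones, and in shallow cells it had 1395, 1830.0 and 440.1 CPM. Of 18 myofibroblast genes, 0 of 10 measured were higher in saline and 2 of 12 in losartan over uninjured, where 9.97% and 8.2% of all genes were. Acta2, smooth muscle actin, had 46.9 CPM in losartan with 1 cell holding 50% of its UMIs, 4.73 CPM in saline cells and 0.80 CPM in uninjured ones.

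Targets of p53, the transcription factor that responds to DNA damage, stood above the median of all genes in all 3 comparisons, over all members and in shallow cells alone. Of 28 measured, 15 were higher and 2 lower in losartan over uninjured, where 8.2% and 6.85% of all genes were. The median was 1.52 against −0.14. At both depths 11 of 25 were higher and 2 lower, where 2.48% and 4.9% of all genes were. In saline over uninjured 8 of 26 were higher and 3 lower, where 9.97% and 25.9% of all genes were, with a median of 0.60 against −0.56. In shallow cells 6 of 23 were higher and 7 lower, where 1020 and 4074 of 10145 genes were. The shallow median was 0.04 against −0.78. At both depths 4 of 20 were higher and 3 lower, where 5.35% and 16.7% of all genes were. In losartan over saline 13 of 28 were higher and 1 lower (median 0.90 against 0.40), where 23.8% and 8.44% of all genes were. Restricted to shallow cells, which are most cells of both injured libraries, 11 of 25 were higher and 0 lower in losartan over saline, with a median of 0.82 against −0.10, where 7.01% of all genes were higher and 7.84% lower. Epithelial markers summed to 1600 CPM in these shallow losartan members and 668 CPM in shallow saline ones, and neutrophil markers to 1487 and 956 CPM, and Aqp5 and the epithelial keratin genes Krt16 and Krt6b were among the 8 highest genes of that comparison. Their part in it was not tested. Over uninjured members, the deep-cell list median was 1.43 against 0.0015 for all genes in losartan, with 17 of 28 higher and 2 lower. It was 1.41 against −0.33 in saline, with 15 of 27 higher and 3 lower. Of all genes in deep cells, 8.59% were higher and 7.33% lower in losartan over uninjured. In deep saline over uninjured cells 1708 of 10273 genes were higher and 2655 lower. Of 25 genes measured in both ranges in losartan over saline, 1 was higher at both depths, 0 were lower and 3 went opposite ways.

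Cdkn1a (chr17:29090976-29100727, plus strand), which encodes the cell cycle inhibitor p21, had 1647 CPM in losartan, 602 CPM in saline cells and 113 CPM in uninjured ones. It was 14.5-fold (13.2 to 16.1) higher in losartan than in uninjured cells, 5.31-fold (4.74 to 5.95) higher in saline than in uninjured cells, and 2.74-fold (2.57 to 2.92) higher in losartan than in saline cells. Shallow cells had 1618, 534 and 74.4 CPM and deep cells 1657, 1039 and 115 CPM in losartan, saline and uninjured libraries, so the order losartan, saline, uninjured held at both depths. Keratin-rich cells had 853, 609 and 546 CPM of it, and immune cells 953 CPM in losartan and 799 CPM in saline.

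Eda2r, of the tumour necrosis factor receptor family, had 93.8 CPM in losartan, 15.8 CPM in saline cells and 2.4 CPM in uninjured ones, 39.1-fold (20.3 to 86.3) higher in losartan than in uninjured cells. Phlda3, a repressor of Akt, had 204, 50.9 and 18.7 CPM, though 3 saline cells held 50% of its saline UMIs. Trp53inp1 had 145, 74.6 and 15.2 CPM in losartan, saline and uninjured cells, and again 3 saline cells held 50% of the saline UMIs. These genes were highest in losartan and lowest in uninjured cells over all members. In shallow cells Trp53inp1 was lower in saline (23.7 CPM) than in uninjured cells (31.0 CPM), and in deep cells Phlda3 was level between losartan (262 CPM) and saline (265 CPM). The BH3-only gene Pmaip1 differed in that it had 46.5 CPM in losartan and 47.8 CPM in saline, against 2.13 CPM in uninjured cells, so the injured libraries were level over all members. In shallow cells it had 79.6 CPM in losartan, 34.0 CPM in saline cells and 6.2 CPM in uninjured ones, the last being 1 UMI. Keratin-rich cells had 55.6, 42.4 and 1.34 CPM of Pmaip1 and 183, 207 and 131 CPM of Phlda3 in the same libraries, so Pmaip1 had a like order outside the stroma. Mdm2, the ubiquitin ligase that removes p53, which was named after its values were seen, had 311, 87.7 and 51.5 CPM and was 2-fold higher at both depths in losartan over uninjured. Bax, a pore-forming protein of the mitochondrial death pathway, had 311 CPM in losartan, 26.8 CPM in saline cells and 101 CPM in uninjured ones, and was the only gene of the list 2-fold higher at both depths in losartan over saline. In shallow cells it had 48.0, 19.4 and 74.4 CPM in losartan, saline and uninjured libraries, so losartan lay below uninjured cells there.

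Ddb2 and Xpc, which find damaged bases for excision repair and are p53 targets in human cells, went the other way. Ddb2 had 49.7 CPM in losartan, 131 CPM in saline cells and 172 CPM in uninjured ones, and Xpc 15.0, 21.5 and 50.7 CPM. Both were 2-fold lower at both depths in each injured library than in the uninjured one, although Ddb2 was not past 2-fold over all saline members. Ddb2 had 128, 142 and 322 CPM in shallow and 23, 58.4 and 166 CPM in deep losartan, saline and uninjured cells. Of the DNA repair list, 2 were higher and 0 lower of 20 measured in losartan over uninjured (median −0.22), and 2 higher and 2 lower of 21 in saline over uninjured (median −0.37), where 25.9% of all genes were lower.

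**Figure D3:**
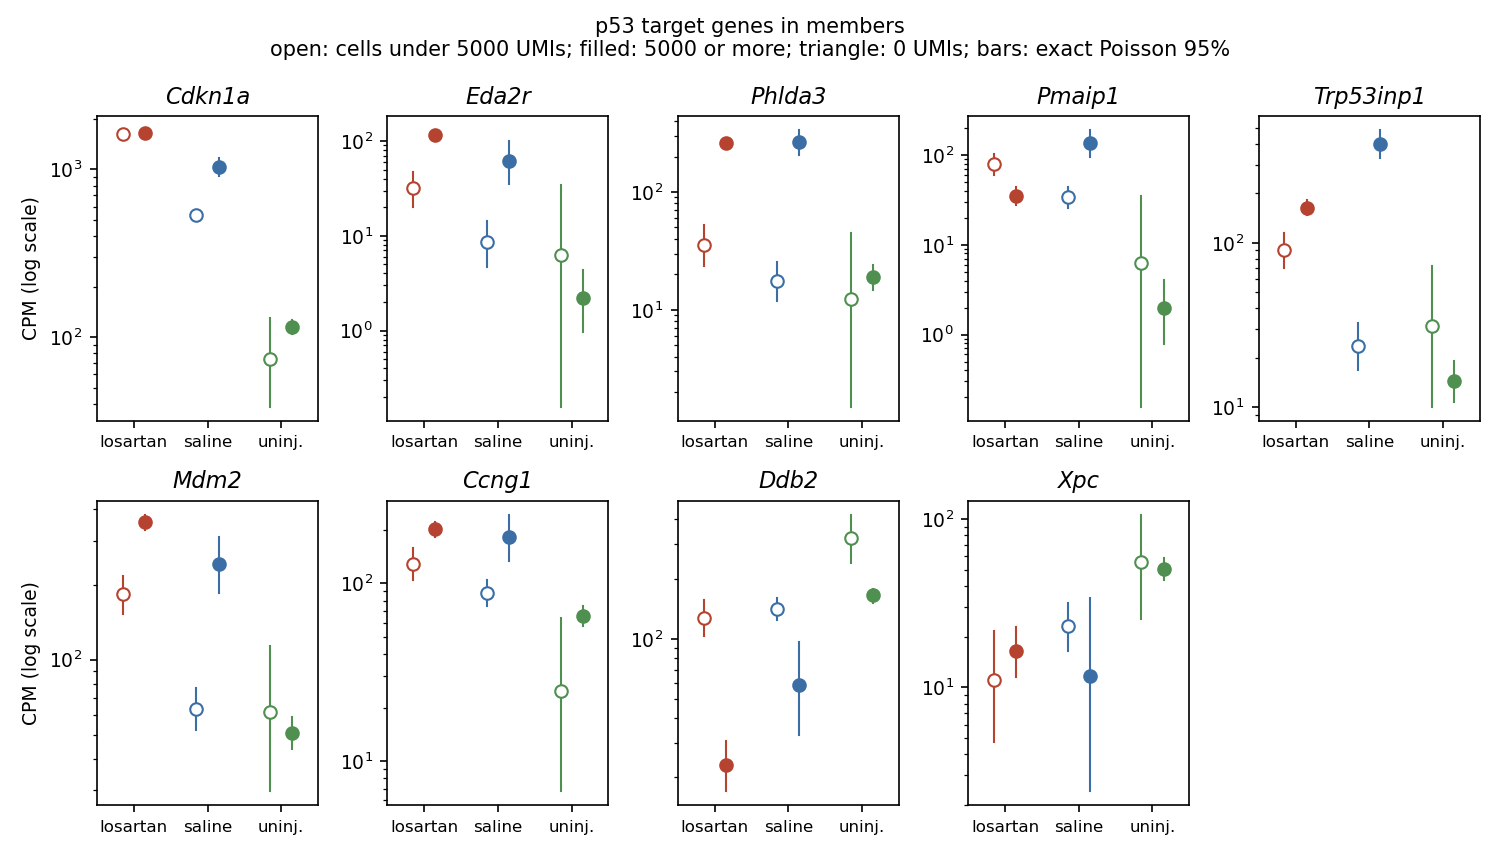
CPM (log scale) of 9 p53 target genes in members, with losartan, saline and uninjured libraries from left to right, shallow cells as open and deep cells as filled symbols, and bars for exact Poisson 95% intervals. Cdkn1a, Pmaip1 and Ccng1 stood above the uninjured library in both injured libraries at both depths, whereas Ddb2 and Xpc stood below it.

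Clock output genes were lower in both injured libraries. Of the 21 clock genes, 1 of 18 measured was higher and 10 lower in saline over uninjured (median −1.09 against −0.56), with 8 of 16 lower at both depths, where 16.7% of all genes were. In losartan over uninjured 3 of 20 were higher and 7 lower (median −0.75 against −0.14), with 6 of 17 lower at both depths, where 4.9% of all genes were. Dbp, a transcription factor of the proline and acidic amino acid-rich family that cycles daily, had 52.8 CPM in losartan, 15.2 CPM in saline cells and 306 CPM in uninjured ones, 5.8-fold (4.89 to 6.92) lower in losartan and 20.1-fold (13.9 to 30.2) lower in saline. Its relative Tef had 34.3, 52.0 and 128 CPM, the repressor Nr1d1 46.2, 22.6 and 134 CPM, and the period gene Per3 28.3, 56.7 and 90.2 CPM in losartan, saline and uninjured cells. All 4 were lower at both depths in both injured libraries. The activator gene Arntl had 48.3 CPM in losartan, 6.3 CPM in saline cells and 13.1 CPM in uninjured ones, and Nfil3, which represses the genes that Dbp and Tef activate, 22.7, 9.45 and 5.87 CPM. Keratin-rich cells had 20.8, 20.6 and 95.4 CPM of Dbp, so both injured libraries lay below the uninjured one there too, level with each other.

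Promoters of this group are shown for the sites through which the clock acts, as given by RefSeq on build GRCm38.p6 from 250 bases before to 50 bases after the start of transcription. Capitals mark matches on either strand to the E-box CACGTG in Tef, bound by the Clock and Arntl pair, and to the D-box TTATGTAA in Per3, bound by Dbp, Tef and Hlf. Of 32851 promoters in the set, 7.15% held CACGTG and 0.938% held TTATGTAA. Tef stands at chr15:81802423-81802722 (plus strand) and Per3 at chr4:151044616-151044915 (minus strand). The set holds 2 windows for Tef, and only the one with the lower start position is shown.
Tef: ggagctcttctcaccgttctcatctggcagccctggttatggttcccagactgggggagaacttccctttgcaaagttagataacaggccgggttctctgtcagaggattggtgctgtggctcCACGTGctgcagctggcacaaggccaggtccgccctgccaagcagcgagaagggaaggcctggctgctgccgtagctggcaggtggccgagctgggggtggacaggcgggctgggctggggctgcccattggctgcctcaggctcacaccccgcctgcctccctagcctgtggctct
Per3: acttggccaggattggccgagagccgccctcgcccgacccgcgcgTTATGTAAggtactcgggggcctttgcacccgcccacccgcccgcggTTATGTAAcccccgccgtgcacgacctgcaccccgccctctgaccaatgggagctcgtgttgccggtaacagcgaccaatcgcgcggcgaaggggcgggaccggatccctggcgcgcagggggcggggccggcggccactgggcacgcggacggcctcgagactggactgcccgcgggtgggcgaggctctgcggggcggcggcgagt
The Tef window shown held 1 E-box and the Per3 window 2 D-boxes, while the Dbp and Nr1d1 windows held neither motif. A match describes these letters only.

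Metallothioneins marked the deep losartan cells. Mt1 and Mt2, small metal-binding proteins induced by zinc, stress and glucocorticoids, had 1992 and 1277 CPM in losartan, 60.4 and 30.5 CPM in saline, and 89.9 and 68.3 CPM in uninjured cells. Mt1 was 33.0-fold (27.4 to 40.0) higher in losartan than in saline and Mt2 41.9-fold (32.4 to 55.3) higher. Within the losartan library the deep members had 2643 CPM of Mt1 and 1696 CPM of Mt2, against 89.2 and 49.4 CPM in shallow members. Losartan cells activated for Mmp3 and Timp1 had 3439 and 2049.9 CPM, and the few activated saline cells 2033 and 1302 CPM. The high level therefore lay in deep and in activated cells. Shallow losartan members stood above shallow saline members (39.5 and 24.3 CPM) but below shallow uninjured members (192 and 149 CPM).

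The promoters of the pair are shown because the genes lie side by side and moved together. Capitals mark the core of the metal response element, TGCACNC or TGCGCNC on either strand, bound by the zinc sensor Mtf1. In the RefSeq set on GRCm38.p6, 25.7% of promoters held at least 1 of the 2. Mt1 stands at chr8:94178839-94179138 and Mt2 at chr8:94172368-94172667, both on the plus strand.
Mt1: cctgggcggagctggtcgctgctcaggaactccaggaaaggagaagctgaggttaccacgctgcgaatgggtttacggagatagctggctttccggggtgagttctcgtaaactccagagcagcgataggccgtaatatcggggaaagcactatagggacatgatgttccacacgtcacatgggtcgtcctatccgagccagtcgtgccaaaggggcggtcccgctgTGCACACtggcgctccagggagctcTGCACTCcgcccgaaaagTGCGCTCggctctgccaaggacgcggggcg
Mt2: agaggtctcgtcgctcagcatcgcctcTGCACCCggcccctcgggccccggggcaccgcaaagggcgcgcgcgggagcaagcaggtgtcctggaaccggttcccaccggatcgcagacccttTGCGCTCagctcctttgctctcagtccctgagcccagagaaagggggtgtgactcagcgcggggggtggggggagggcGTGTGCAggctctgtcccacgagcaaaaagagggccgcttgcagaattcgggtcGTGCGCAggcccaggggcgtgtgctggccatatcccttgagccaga
There were 3 matches in the Mt1 window and 4 in the Mt2 window.

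Chemokine and NF-kB genes were also carried by the deep losartan cells. Of 36 chemokine and cytokine genes, 22 of 24 measured were higher and 0 lower in losartan over uninjured (median 2.12 against −0.14). In saline over uninjured 7 of 13 were higher and 1 lower (median 1.13 against −0.56). In losartan over saline 18 of 25 were higher and 1 lower (median 1.75 against 0.40). Of all genes 8.2%, 9.97% and 23.8% were higher in these comparisons. A gene near 0 CPM in the lower library entered only if the other library reached 10 CPM. Such genes could hardly come out lower, so these counts and medians describe levels and test nothing. Of the NF-kB genes, 17 of 22 were higher and 0 lower in losartan over saline (median 1.42 against 0.40), where 23.8% of all genes were higher. In saline over uninjured 2 of 21 were higher and 6 lower (median −0.73 against −0.56), near the 9.97% and 25.9% of all genes. In shallow cells alone 1 of 10 measured chemokine genes and 1 of 19 NF-kB genes were higher in losartan over saline, where 7.01% of all genes were. Cxcl1, which attracts neutrophils, had 1055 CPM in losartan, 119 CPM in saline cells and 40.0 CPM in uninjured ones, and was 2-fold higher at both depths in each injured library than in the uninjured one. Deep losartan members had 1374 CPM of it, shallow ones 125 CPM and activated losartan cells 2724 CPM.

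The monocyte attractants Ccl2 and Ccl7 had 401 and 237 CPM in losartan, 16.3 and 15.2 CPM in saline and 23.5 and 4.27 CPM in uninjured cells. In the losartan library 8 cells held 50% of the Ccl2 UMIs and 5 cells 50% of the Ccl7 UMIs. Cebpd, a transcription factor of the acute phase, had 1481, 131 and 254 CPM in losartan, saline and uninjured cells, and Nfkb1 726, 73.5 and 165 CPM, with 1941 and 943 CPM in deep and 136 and 90.6 CPM in shallow losartan members. Cxcl2 had 499.6 CPM in losartan, 1252 CPM in saline and 5.07 CPM in uninjured members, while immune cells had 18261 CPM in losartan and 33009.6 CPM in saline. In shallow members the injured libraries stood the other way round, with 633 CPM in losartan and 456 CPM in saline.

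Over all genes, the deep losartan members were close to the activated losartan cells and far from the shallow losartan members. Of 8858 genes, 1.9% were higher and 1.37% lower by 2-fold or more in deep losartan members than in activated losartan cells, 3.26% in all. The chemokine list was further apart, with 2 of 28 higher and 10 lower in deep members (median −0.86 against 0.12). Of the cell cycle list, 0 of 18 were higher and 6 lower (median −0.71). Between deep and shallow losartan members 38.8% of 9572 genes were higher and 11.2% lower in the deep ones, 50% in all. Between deep losartan and deep uninjured members 8.59% of 9524 genes were higher and 7.33% lower in losartan, 15.9% in all. The first of these sets cells of a range cut by Mmp3 and Timp1 side by side, so it describes the cut. Several genes that members of all 3 libraries otherwise expressed were low in the deep losartan members. The receptor tyrosine kinase gene Erbb4 had 7.51 CPM there, against 349 CPM in shallow losartan, 919 CPM in shallow saline and 616 CPM in deep uninjured members, and 2.25 CPM in activated losartan cells. The teneurin gene Tenm4 had 1.41, 68.6, 223 and 144 CPM in the same 4 sets of members, and Mamdc2 21.6, 90.6, 229 and 327 CPM. Twist1, a transcription factor of mesenchymal cells, instead was high in deep losartan (704 CPM) and uninjured members (926 and 558 CPM, deep and shallow) and low in shallow losartan (60.4 CPM) and shallow saline members (48.6 CPM).

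**Figure D4:**
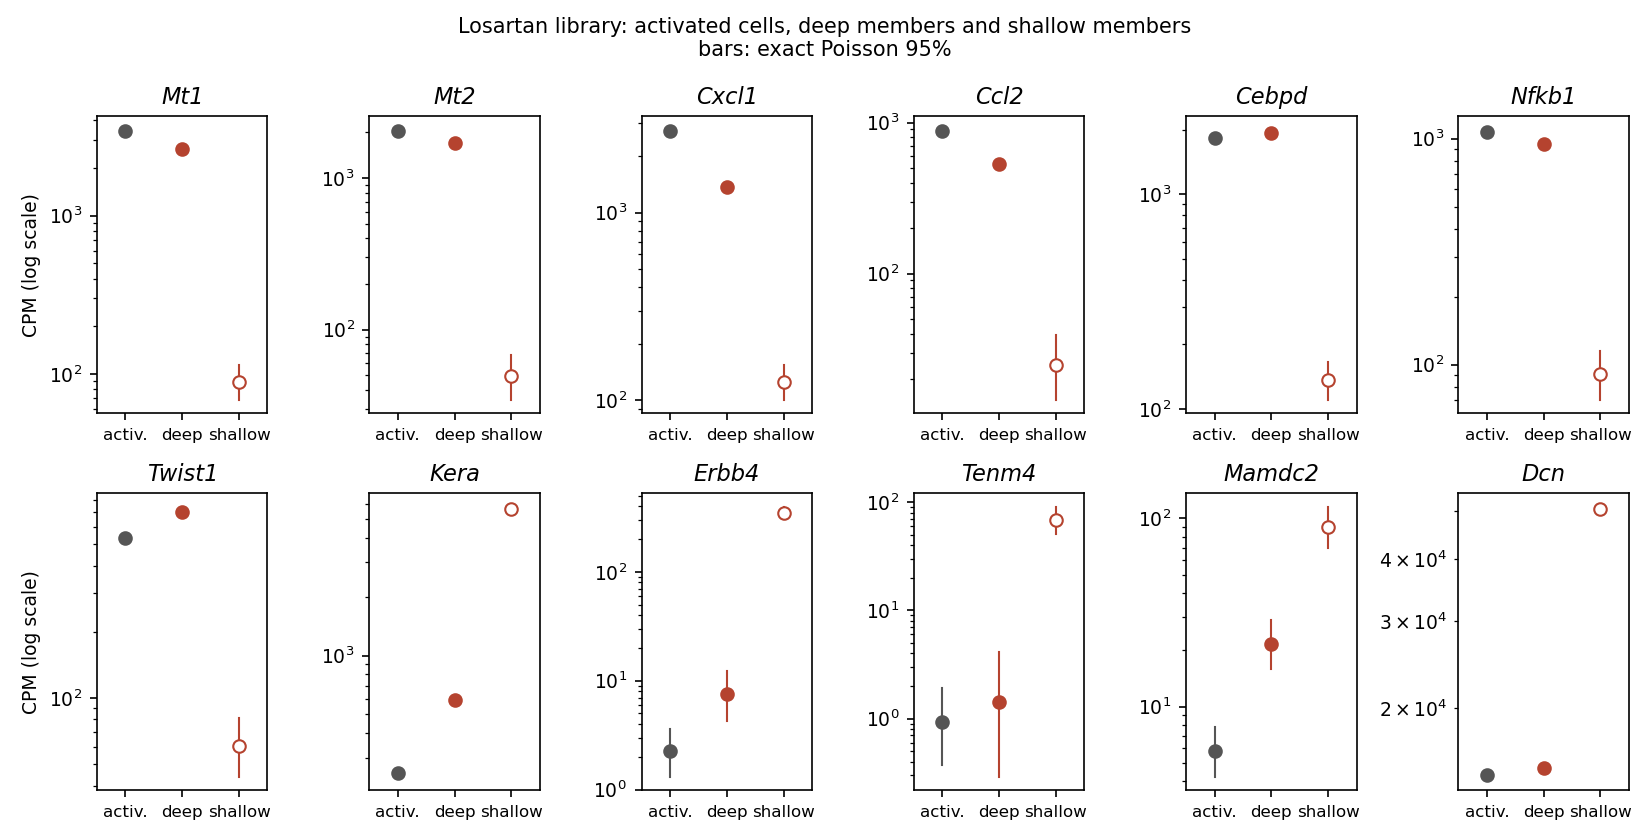
CPM (log scale) of 12 genes within the losartan library, with cells activated for Mmp3 and Timp1, deep members and shallow members from left to right and bars for exact Poisson 95% intervals. Mt1, Mt2, Cxcl1, Ccl2, Cebpd, Nfkb1 and Twist1 were high in activated cells and deep members and low in shallow members, and Kera, Erbb4, Tenm4, Mamdc2 and Dcn ran the other way.

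Endoplasmic reticulum folding genes were lower in saline cells over all members. Of the endoplasmic reticulum stress genes, 2 of 22 measured were higher and 12 lower in saline over uninjured, where 9.97% and 25.9% of all genes were. The median was −1.32 against −0.56, and −0.82 against −0.78 in shallow cells. At both depths 8 of 21 were lower and 2, Ddit3 and Dnajb9, higher, where 16.7% and 5.35% of all genes were. In losartan over uninjured 0 of 23 were higher and 2 lower (median −0.03 against −0.14). Trib3, a pseudokinase gene induced by Atf4, was low in both injured libraries at both depths, with 4.55 CPM in losartan and 5.25 CPM in saline against 81.4 CPM in uninjured cells, 17.9-fold (10.3 to 34.0) and 15.5-fold (8.31 to 32.6) lower. Herpud1 had 101, 23.6 and 229 CPM in losartan, saline and uninjured cells. Atf4 itself had 386 CPM in losartan, 559 CPM in saline cells and 249 CPM in uninjured ones, and was 2-fold higher in saline than in uninjured cells.

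Of 32 immediate early genes, 5 were higher and 10 lower in saline over uninjured, where 9.97% of all genes were higher and 25.9% lower, and 5 were higher and 2 lower in losartan over uninjured, where 8.2% and 6.85% were. In shallow cells the balance turned, with 11 higher and 6 lower in each injured library over uninjured (medians 0.47 against −0.92 in losartan and 0.27 against −0.78 in saline). Fos had 1888 CPM in losartan, 253 CPM in saline cells and 3023 CPM in uninjured ones, and Klf2 523, 67.7 and 768 CPM, both lower in shallow than in deep losartan cells (270.4 and 64.5 CPM in shallow ones). Ier5 was higher in both injured libraries at both depths, with 309 and 291 CPM against 43.5 CPM.

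Of 28 oxidative stress genes, the haem oxygenase gene Hmox1 and the cystine carrier gene Slc7a11 were called higher at both depths in both injured libraries. Hmox1 had 89.2 CPM in losartan, 33.6 CPM in saline cells and 5.87 CPM in uninjured ones. Slc7a11 had 37.4, 125 and 3.2 CPM, with 50% of its UMIs in 5 losartan and 3 saline cells. In shallow cells Hmox1 had 19.2 CPM in losartan and 22.5 CPM in saline, and Slc7a11 52.2 and 30.3 CPM. In shallow uninjured cells 3 UMIs are worth 18.6 CPM, so the shallow calls rest on few UMIs and Hmox1 cannot be compared there. The glutathione transferase gene Gsta4, high in the epithelium, was lower in both, with 58.4 CPM in losartan and 43.1 CPM in saline, against 168 CPM in uninjured members. Nuclear genes of the respiratory chain were higher in losartan than in saline for 22 of 31 and lower for 0 (median 1.54 against 0.40), where 23.8% of all genes were higher. They were lower in saline than in uninjured cells for 14 of 31 (median −0.99 against −0.56), where 25.9% of all genes were. Mitochondrially encoded genes ran the other way, with 7 of 13 higher in saline over uninjured, where 9.97% of all genes were. In shallow cells, 2 of 13 were, and 1 of 13, mt-Co1, was higher at both depths. The mitochondrial share of UMIs was higher in shallow than in deep cells of every library, as given above. Only 1 of the 31 nuclear genes, Ndufa4, differed at both depths in losartan over saline.

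The receptors that losartan acts on were near or at 0 UMIs. Agtr1a, the mouse type 1a angiotensin receptor, had 1 UMI in losartan members, 1 in saline members and 0 in uninjured members, which allows up to 0.80 CPM there on a limit of 3 counts, and Agtr1b had 0 UMIs in each library. Activated uninjured cells had 22.4 CPM of Agtr1a, from 9 UMIs. Agtr2 (chrX:21484544-21489164, plus strand), the type 2 receptor that losartan does not block, was expressed, with 72.4 CPM in losartan, 67.7 CPM in saline cells and 107 CPM in uninjured ones, and no difference past 2-fold over all members. In deep cells alone it was 2-fold lower in saline than in uninjured members. The precursor Agt and renin (Ren1) had 0 UMIs in all members, and Ace, Enpep and Mas1 stayed under 10 CPM.

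Of the peptidases, neprilysin (Mme) had 119 CPM in losartan, 269.9 CPM in saline cells and 501 CPM in uninjured ones, 4.2-fold (3.74 to 4.73) lower in losartan than in uninjured cells and 2-fold lower there at both depths. Aminopeptidase N (Anpep) had 33.2, 8.93 and 55.7 CPM and was lower at both depths in saline over uninjured. The receptor-binding protein genes Atp6ap2 (94.5, 42.5 and 107 CPM) and Agtrap (21.0, 14.2 and 35.2 CPM) were 2-fold lower in saline than in uninjured cells, and the aminopeptidase Lnpep had 71.4, 50.4 and 97.9 CPM. In shallow cells Atp6ap2 had 70.0, 39.5 and 55.8 CPM, Agtrap 12.4, 14.6 and 49.6 CPM and Lnpep 49.4, 45.5 and 192 CPM in losartan, saline and uninjured libraries.

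Signalling genes showed a few changes that stood at both depths. Of the TGF-beta list, 5 of 27 were higher and 12 lower in saline over uninjured, where 9.97% and 25.9% of all genes were. The median was −0.96 against −0.56, and −0.62 against −0.78 in shallow cells. In losartan over uninjured 7 of 27 were higher and 1 lower, where 8.2% and 6.85% of all genes were. The median there was −0.10 against −0.14, and −0.94 against −0.92 in shallow cells. The receptor gene Tgfbr2 had 152 CPM in losartan, 74.0 CPM in saline cells and 198 CPM in uninjured ones and was lower at both depths in saline. The repressor gene Tgif1, with 69.6, 37.3 and 12.3 CPM, was higher at both depths in both injured libraries. Of the Wnt and BMP modulators, Bmp3 was lower at both depths in both, with 116 CPM in losartan and 100.3 CPM in saline against 430.3 CPM in uninjured cells, and Wnt5a had 761, 336 and 1511 CPM. Igfbp3 was higher in both, at 37.1 and 29.9 against 2.93 CPM, but keratin-rich cells of the injured libraries held 423 and 635 CPM. The growth factor Vegfb was lower in both, at 10.5 and 8.4 against 43.7 CPM. Among cell surface genes, integrin alpha 4 (Itga4) had 17.8 CPM in losartan, 50.4 CPM in saline cells and 95.5 CPM in uninjured ones and was lower at both depths in both injured libraries.

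**Figure D5:**
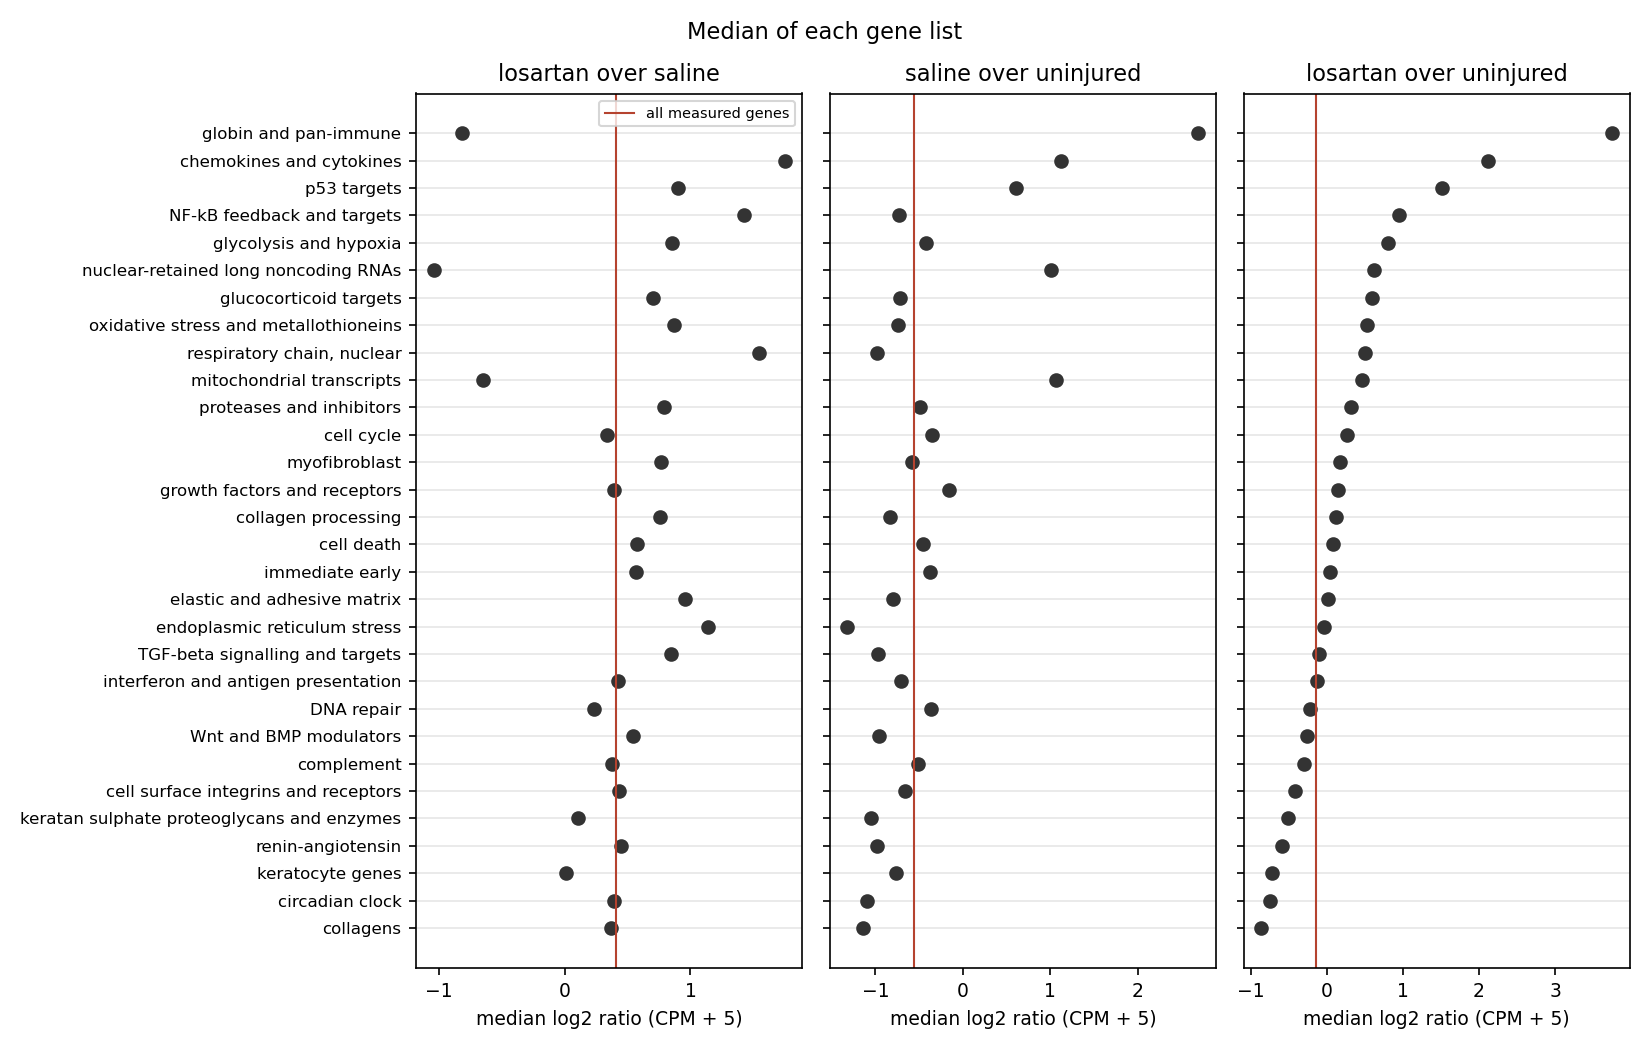
Median log2 ratio of the measured genes of each list in losartan over saline, saline over uninjured and losartan over uninjured, from left to right, for all members. The vertical line in each panel marks the median of all measured genes. The p53 and chemokine lists lie right of it in all 3 panels, and the clock and keratan sulphate lists lie left of it in the comparisons with uninjured cells.

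Among the genes with the largest ratios outside the lists, several were lower in both injured libraries at both depths. Art4, an ADP-ribosyltransferase gene, had 9.45 CPM in losartan and 18.4 CPM in saline against 185 CPM in uninjured cells, 19.6-fold (13.4 to 30.0) and 10.1-fold (7.17 to 14.6) lower. The neurexophilin gene Nxph4 had 14.7 and 8.4 against 176 CPM, 12.0-fold (8.78 to 16.8) and 21.0-fold (12.8 to 36.9) lower. The sialyltransferase gene St6galnac2 had 3.85 and 14.7 against 84.3 CPM, 21.9-fold (12.1 to 44.3) lower in losartan. Keratin-rich cells had at most 13.9 CPM of Art4 and 3.84 CPM of Nxph4 in any library.

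Lypd2, Slurp1 and Dapl1, also among the lowest, are genes of the surface epithelium. Uninjured members had 179 CPM of Lypd2, 121 CPM of Slurp1 and 67.0 CPM of Dapl1, 2.86%, 2.6% and 3.57% of the levels in keratin-rich cells of that library, beside 2.5% for Aqp5. In injured members they were at 0 to 1.4 CPM. These values are not read as expression by keratocytes.

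The highest genes in saline over uninjured were the uncharacterised loci Gm29585, Gm49313 and Gm10827, with 999, 241 and 306 CPM in losartan, 1514, 676 and 507 CPM in saline, and 0.533, 0 and 0.533 CPM in uninjured cells. Few cells carried them, since 9 losartan and 12 saline cells held 50% of the Gm29585 UMIs. In losartan they lay in shallow cells, with Gm10827 at 1169 CPM in shallow and 10.8 CPM in deep members. The noncoding locus 1700010K24Rik had 125, 185 and 4.0 CPM, and Gm26917 198, 1539 and 64.6 CPM, 7.77-fold (7.1 to 8.52) lower in losartan than in saline and lower at both depths. The chemokine genes Ppbp, Ccl6 and the osteopontin gene Spp1 were at 0 or 0.267 CPM in uninjured cells and reached 196, 109.7 and 111 CPM in saline and 57.7, 83.3 and 137 CPM in losartan. Saline keratin-rich cells had 12456 CPM of Ppbp, and immune cells of the injured libraries 3467 and 3683 CPM of Ccl6 and 1735 and 5655 CPM of Spp1 in losartan and saline, and these values are not read as expression by keratocytes.

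Between losartan and saline, the highest genes included Gas6, Mt2, Mt1, Serpina3n, Gria3, Mfap2 and Cebpd. Gas6, a ligand of the Axl family of receptors, had 292 CPM in losartan, 2.63 CPM in saline cells and 16.3 CPM in uninjured ones, with 388 CPM in deep and 13.7 CPM in shallow losartan members. Serpina3n, a secreted protease inhibitor, had 246, 12.1 and 2.67 CPM, and the glutamate receptor gene Gria3 74.2, 1.05 and 2.13 CPM. The lowest were Tenm4, Erbb4, Kcnb2, Gm26917, Grm8, Gsg1l, Mamdc2 and Filip1l. Erbb4 had 94.5 CPM in losartan, 870.0 CPM in saline cells and 636 CPM in uninjured ones, 9.21-fold (8.09 to 10.5) lower in losartan than in saline, and in shallow cells alone 2.64-fold (2.31 to 3.02) lower. Tenm4 was 11.2-fold (8.38 to 15.2) lower over all members and 3.25-fold (2.42 to 4.47) lower in shallow cells. Kcnb2 (4.2, 73.5 and 20.3 CPM), a potassium channel gene, and Grm8 (31.8, 210.0 and 62.7 CPM), a glutamate receptor gene, were also lower in losartan. Gsg1l (18.9, 131 and 124 CPM), Mamdc2 (39.2, 216 and 328 CPM) and Filip1l (79.4, 379 and 224 CPM) completed them. The long noncoding RNA Pvt1, among the 8 highest in losartan over uninjured, had 119, 14.7 and 4.0 CPM. Of the 8 lowest, the saline level was at or above the uninjured level in all but Mamdc2.

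Between shallow losartan and shallow saline members, no list other than the p53 list and that of globin and pan-immune genes had more than 3 genes higher or more than 4 lower. Of 8470 genes, 14.9% differed by 2-fold between shallow losartan and shallow saline members. The keratan sulphate list had a median of 0.05, the collagens −0.24, the TGF-beta list −0.16 and the clock list −0.25, beside −0.10 for all genes. The p53 list was at 0.82, beside the epithelial and neutrophil sums given above.

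The remaining lists are set beside the shares of all genes, which were 8.2% higher and 6.85% lower in losartan over uninjured and 9.97% higher and 25.9% lower in saline over uninjured. Of the interferon and antigen presentation list, 1 of 27 was higher and 4 lower in losartan over uninjured and 2 of 25 higher and 11 lower in saline over uninjured. At both depths 3 of 17 were higher in saline, the class I genes B2m, H2-K1 and H2-D1, and 3 were lower, where 5.35% and 16.7% of all genes were. In shallow cells B2m, H2-K1 and H2-D1 were also 2-fold higher in losartan over uninjured. Deep saline members held 1198 CPM of the pan-immune markers, and the part of immune RNA in these levels was not tested. Of the proteases and inhibitors, 4 of 23 were higher and 0 lower in losartan over uninjured, and 4 of 24 higher and 6 lower in saline over uninjured, the lower count being at the share of all genes. The 4 in losartan were Timp1, Serpine2, Plaur and Mmp3. The selection limits Timp1 and Mmp3, so that count describes the choice in part and tests nothing. The urokinase receptor gene Plaur, with 55.3 CPM in losartan, 54.6 CPM in saline cells and 3.47 CPM in uninjured ones, was higher at both depths in both. The part of immune RNA in the Plaur level was not tested. Of the complement list, 4 of 11 were higher and 1 lower in losartan over uninjured, and 1 of 10 higher and 2 lower in saline over uninjured, with 1 of 7 and 0 of 9 higher at both depths. Of the cell death list, 5 of 21 were higher and 2 lower in losartan over uninjured, and 1 of 19 higher and 3 lower in saline over uninjured, with 1 of 12 and 2 of 13 higher at both depths. Of the glycolysis and hypoxia list, 7 of 25 were higher and 1 lower in losartan over uninjured, but 2 of 26 were higher and 9 lower in shallow cells, and 3 of 25 were higher and 8 lower in saline over uninjured. Of 30 cell cycle genes, 11 were measured in losartan over uninjured, with 1 higher and 0 lower, and 12 in saline over uninjured, with 3 higher and 3 lower, and 0 of 9 differed the same way at both depths in either. Of the glucocorticoid targets, 5 of 12 were higher and 2 lower in losartan over uninjured, the metallothioneins among them, but 2 of 11 were higher and 7 lower in shallow cells. In saline over uninjured 2 of 12 were higher and 4 lower, with 2 higher and 3 lower at both depths. Of 8 measured nuclear-retained noncoding RNAs, 2 were higher and 1 lower in losartan over uninjured, and 4 higher and 0 lower in saline over uninjured, of which 2 were higher at both depths.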

How the data were processed

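UMI counts per gene and cell barcode were deposited by the authors as unnormalised count matrices, for which the file headers name Cell Ranger 8.0.0 and the submitters' processing notes build GRCm38. The annotation release, intron counting and any doublet removal are not given in the sources used here. Raw counts of 3 libraries, with 1 mouse each per the series' design text, were read for 32285 genes. Gene positions are those of GENCODE M21 and promoters those of RefSeq, both on GRCm38. Members were chosen per cell by the rule given in the report, their counts were summed per library, and sums were scaled to a total of 1000000 (CPM). Levels have exact Poisson intervals, ratios exact conditional binomial intervals, and shares exact Clopper-Pearson intervals at 95%, and all cover counting error only. A gene was called at 2-fold on CPM + 5 with 10 CPM or more in either library. No test across libraries was possible. Named genes were all selection genes, the 8 highest and 8 lowest of each comparison with 10 or more cells holding 50% of the UMIs, up to 3 highest and 3 lowest of each list past 2-fold, and every member of the keratan sulphate, keratocyte and renin-angiotensin lists. Some genes that this rule names are not reported here. Other names were chosen after values were seen. The members and lists were chosen with earlier results of these data known. Doublets were scored by simulation and removed only as an alternative, which took 9 losartan, 14 saline and 20 uninjured members. Other alternatives changed the scaling, pseudocount, level minimum, cell weights, depth, cell filters and selection limits. Thinning to 1000 UMIs left out 3, 2 and 5 members of the losartan, saline and uninjured libraries. The calls were tested on simulated data. Python 3.11.15, numpy 2.4.6, scipy 1.17.1 and pandas 2.3.3 were used.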

Additional observations from a re-analysis of the deposited data

How the results depend on the processing

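The order of the member shares, losartan below saline and uninjured, held under all the alternatives below except in shallow cells alone, where the 3 libraries lay close. In losartan over saline, the 3074 genes past 2-fold became 1345 with a pseudocount of 20 CPM, 1462 with a minimum of 50 CPM, 1304 with equal weight for every cell, 1982 with each cell thinned to 1000 UMIs, 1335 with no UMI of Mmp3 or Timp1 allowed, 1258 with shallow cells alone. In saline over uninjured, the 3489 genes past 2-fold became 2281 with median-of-ratios scaling, 1480 with a pseudocount of 20 CPM, 1551 with a minimum of 50 CPM. In losartan over uninjured, the 1446 genes past 2-fold became 645 with a pseudocount of 20 CPM, 678 with a minimum of 50 CPM, 2721 with equal weight for every cell, 3543 with each cell thinned to 1000 UMIs, 3734 with no UMI of Mmp3 or Timp1 allowed, 5762 with shallow cells alone. The losartan member share of 54.9% became 49.2% with cells of 2000 or more UMIs, 32.0% with a minimum of 1000 genes, 50.3% with 3 or more Kera UMIs, 61.7% with no Kera requirement, 37.5% with no UMI of Mmp3 or Timp1 allowed, 61.7% with a stromal limit of 200 per 10000, 86.6% with shallow cells alone, 25.8% with deep cells alone, 42.7% with the rule applied after thinning to 1000 UMIs. The saline member share of 83.3% became 86.1% with cells of 2000 or more UMIs, 86.3% with a minimum of 1000 genes, 78.4% with 3 or more Kera UMIs, 95.4% with no Kera requirement, 78.3% with no UMI of Mmp3 or Timp1 allowed, 86.9% with a stromal limit of 200 per 10000, 57.1% with deep cells alone, 78.3% with the rule applied after thinning to 1000 UMIs. The uninjured member share of 84.0% became 87.8% with no Kera requirement, 76.8% with no UMI of Mmp3 or Timp1 allowed, 79.6% with the rule applied after thinning to 1000 UMIs. 

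For some named genes, log2 ratios past 2-fold over all members changed sign. With equal weight for every cell, the ratios were in losartan over saline Gm42418 0.13, Kera 0.065. With each cell thinned to 1000 UMIs, the ratios were in losartan over saline Gm42418 0.14, Gm49313 0.0050, Kera 0.14, and in losartan over uninjured Ndufa4 −0.065. With no Kera requirement, the ratios were in saline over uninjured Gas6 0.54, Mt2 0.67. With no UMI of Mmp3 or Timp1 allowed, the ratios were in losartan over saline Acta2 −0.39, Aspn −0.50, Fmod −0.21, Gm42418 0.31, Gm49313 0.093, Kera 0.26, Klf2 −0.31, Thbd −0.39, and in losartan over uninjured Aspn −0.22, Col3a1 −1.24, Fmod −0.65, Ndufa4 −0.11, Nfkb1 −0.060, Thbd −0.97. With doublet-scored cells removed, the ratios were in losartan over saline Slc7a11 0.79. With members of 2 or more immune or keratin UMIs left out, the ratios were in losartan over saline Slc7a11 0.62, Wnt5a −0.010. With shallow cells alone, the ratios were in losartan over saline Acta2 −0.053, Anpep −0.010, Aspn −0.63, Cxcl2 0.47, Fmod −0.33, Gm42418 0.41, Gm49313 0.40, Herpud1 −0.0027, Hmox1 −0.18, Kera 0.35, Slc7a11 0.69, Thbd −0.26, Timp1 −0.21, Tnc −0.50, and in saline over uninjured Trp53inp1 −0.33, and in losartan over uninjured Bax −0.58, Fmod −0.19, Gas6 −1.70, Kcnk2 0.061, Mt1 −1.07, Mt2 −1.50, Ndufa4 −0.74, Nfkb1 −1.29, Thbd −1.17, Tnc −0.30. With deep cells alone, the ratios were in losartan over saline Phlda3 −0.016, and in saline over uninjured Mt2 0.11, Nfkb1 0.56. The cause of these changes was not tested.

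Leaving out members with 2 or more immune or keratin UMIs kept 112 losartan, 460 saline and 2 uninjured cells, so it gave no value against uninjured cells. No paired analysis was possible because each group is 1 library. With 1 library a group, intervals cover counting error only, and genes near 1 UMI in the shallow uninjured or deep saline cells cannot be compared there. Depth split the losartan library in the same direction as its low Kera and high chemokine levels, and they cannot be told apart beyond the values given by depth.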
